A study of Homo sapiens with 10 samples.

Results

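The transcripts described here are those of 40 genes of G2 and mitosis, the closing part of the cell cycle, in MOLT-4 cells over 6 h of treatment with an antibody against CD47. Members were taken by symbol from the platform annotation of the array, which gave 66 probe sets (groups of short probes that together read 1 transcript) and at least 1 for every gene. Of these, 31 probe sets of 22 genes passed the filter on low values and were tested, beside 4276 of 22215 probe sets in all. MOLT-4 is an established human T-cell acute lymphoblastic leukaemia line, and MABL is the antibody against CD47, a membrane protein of the immunoglobulin superfamily.

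The 10 arrays held 2 replicates at each of 0 h, 0.5 h, 1 h, 3 h and 6 h. By the labels all 5 groups received 10 ug/mL MABL and 50 ug/mL GAM, an agent the labels do not spell out, and the groups differ only in the time. The 0 h arrays were the control in the submitters' design, with no untreated series over time used here, so antibody, GAM and time in culture cannot be told apart in any change from 0 h. No label says that replicates were separate cultures, and the p-values therefore describe the spread among these arrays alone, which could be a technical one. The labelled cell type matched its markers. Of 17 T-lineage genes with a probe set, 13 passed the filter, among them CD3D, CD5, LCK and PTCRA. By contrast 0 of 5 B-cell, 0 of 7 myeloid, 0 of 5 natural killer and 0 of 5 epithelial markers did. Of 5 fibroblast markers COL1A1 alone did.

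Entry into mitosis is driven by CDK1, a kinase that is active when bound to cyclin A or cyclin B and freed of inhibitory phosphates by CDC25 phosphatases. Aurora and polo-like kinases, motor proteins and condensin then build the spindle and compact the chromosomes, and the spindle checkpoint holds back the anaphase-promoting complex until the kinetochores are attached. Many of these genes are transcribed together late in the cycle, through promoters that hold a cell cycle genes homology region, known as the CHR, near CCAAT boxes that bind NF-Y. Several of their proteins, and several of the mRNAs, are made and destroyed once in each division.

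The promoters of these genes are shown because the CHR and the CCAAT box are sequence features that many, not all, members hold and that the choice of members did not use. RefSeq promoter windows of GRCh38.p14 were matched by symbol for 33 of the 40 genes, and the 250 bases before each start were searched on both strands. The CHR in its usual form, TTTGAA, stood in the windows of 17 of 33 members, or 51.5%, against 16.1% of all 27305 genes with a window, and CCAAT in 27 of 33, or 81.8%, against 37.0% of all. With 3 further forms of the CHR counted, namely TTCGAA, then TTTAAA, then CTTGAA, 25 members (75.8%) and 33.4% of all genes had a match. More than 1 CCAAT stood in 16 members (48.5%) and 11.5% of all genes. Of the 8 members with a window that were called lower at 0.5 h or 1 h, 7 had a CHR form and 8 a CCAAT, and of the 8 tested members with a window that were not, 5 and 7 did. A match is a description of the letters and not a measured binding site. The 110 bases before 1 annotated start are given for 4 members that were lower at 1 h, CDK1 (chr10:60778368-60778477, plus strand), CCNB1 (chr5:69167040-69167149, plus), CCNB2 (chr15:59105036-59105145, plus) and CCNA2 (chr4:121823884-121823993, minus), and for 4 that were not, CDC20 (chr1:43358871-43358980, plus), PTTG1 (chr5:160421745-160421854, plus), CKS2 (chr9:89311085-89311194, plus) and ZWINT (chr10:56361274-56361383, minus). Capitals mark the CHR forms and CCAAT boxes of either strand.
CDK1: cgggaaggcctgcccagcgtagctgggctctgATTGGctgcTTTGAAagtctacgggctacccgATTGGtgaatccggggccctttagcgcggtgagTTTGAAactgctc
CCNB1: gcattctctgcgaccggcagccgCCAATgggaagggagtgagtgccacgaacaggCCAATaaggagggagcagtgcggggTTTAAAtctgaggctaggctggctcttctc
CCNB2: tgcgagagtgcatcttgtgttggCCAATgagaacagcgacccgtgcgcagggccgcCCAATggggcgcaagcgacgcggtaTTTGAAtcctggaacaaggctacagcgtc
CCNA2: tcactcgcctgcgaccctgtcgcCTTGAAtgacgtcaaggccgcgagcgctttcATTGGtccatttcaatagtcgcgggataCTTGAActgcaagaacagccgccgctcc
CDC20: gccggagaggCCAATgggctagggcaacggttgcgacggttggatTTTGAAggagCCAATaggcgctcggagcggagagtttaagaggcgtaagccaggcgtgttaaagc
PTTG1: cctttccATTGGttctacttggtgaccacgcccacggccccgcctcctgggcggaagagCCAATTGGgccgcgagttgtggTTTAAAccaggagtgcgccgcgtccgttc
CKS2: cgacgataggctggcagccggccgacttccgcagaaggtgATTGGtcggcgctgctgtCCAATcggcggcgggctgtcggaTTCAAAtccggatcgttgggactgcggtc
ZWINT: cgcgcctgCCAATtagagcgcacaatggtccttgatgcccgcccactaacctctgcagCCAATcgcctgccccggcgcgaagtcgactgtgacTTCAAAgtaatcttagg
The CHR form closest to the start began 28 to 30 bases before it in CCNB1, CCNB2, CCNA2, PTTG1 and CKS2, 13 before it in CDK1, 17 in ZWINT and 65 in CDC20. The printed genes were picked by hand, and for a gene with several annotated starts the one with the most matches was taken. That both groups held these letters therefore follows in part from the choice, and no difference between them was tested. Among members not printed, MAD2L1, which was called lower, had no CHR form, and KIF2C, not called lower by 1 h, had neither.

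Levels are square roots of the deposited scores, read as log2. That reading is inferred from the values and not stated by the submitters, so every size given here as a log2 level or log2 change depends on it. A change is the mean of 2 arrays at a time minus the mean of the 2 arrays of 0 h, n = 2 each, with the SE of limma's fit over all 10 arrays, and "called" means a Benjamini-Hochberg adjusted p under 0.05 over the 4276 tested probe sets. Levels of different probe sets are not on 1 scale and are not compared. Probe sets whose name ends in x_at hold probes that can bind other transcripts, so that those of PTTG1 and FOXM1 and 1 each of CDK1, BUB3 and BIRC5 may read near-identical copies too.

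The arrays themselves moved with time. Set against 0 h, the median array level over tested probe sets shifted by -0.13, -0.29, -0.31 and -0.25 at the 4 later times, in order, and a change taken with equal array medians is higher by the size of these shifts. The median of the changes of single probe sets, as deposited, was 0.01, -0.03, -0.15 and -0.14. The 3 probe sets for 18S ribosomal RNA were higher than at 0 h by 1.44, 1.66, 2.17 and 2.58 on average, and 18 spike-in probe sets by 0.27, 0.25, 0.76 and 0.63. Replicates correlated at 0.991 to 0.994. In these cultures, fewer cells in G2 or mitosis and less of a transcript in each cell cannot be told apart.

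At 1 h the set had its most calls. There 16 of the 31 tested member probe sets (11 of 22 genes) were called lower and 0 higher, with a median change of -0.53, beside 24.2% of all tested probe sets called lower, 4.14% called higher and a median of -0.03. After 0.5 h, 11 probe sets (6 genes) were lower and 0 higher at a median of -0.40, where the background was 15.1% lower and 1.92% higher. By 3 h the count was 8 lower (7 genes) and 0 higher at a median of -0.45, against a background of 26.4% and 2.53%. At 6 h it was 7 lower (6 genes) and 1 higher at a median of -0.35, against 21.6% and 4.07%. The calls of 1 h include BUB3 201458_s_at, CCNA2 213226_at and TPX2, whose arrays of that time all lay below the filter. The same held for the BUB3 and CCNA2 probe sets at 0.5 h, and for BUB3 and TPX2 at 3 h. They passed the filter on arrays of other times, so these calls add no support. NUSAP1 counts at 1 h and 3 h on 218039_at alone, and its other tested probe set was not called there. With all of these counted, 35.5%, 51.6%, 25.8% and 22.6% of member probe sets were called lower at the 4 times. That is above the background at 0.5 h and 1 h and near it at 3 h and 6 h. The excess at 0.5 h and 1 h includes the calls that add no support, and no share without them is given. It also counts each probe set of CDK1, BUB3 and CCNA2, so it is not a share of genes. At an unadjusted p under 0.05, 2 were higher at 0.5 h, 0 at 1 h and 1 at 3 h.

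With equal array medians 12 member probe sets were lower and 2 higher at 0.5 h (background 15.3% and 6.9%), 14 and 5 at 1 h (19.5% and 32.5%), 6 and 4 at 3 h (17.8% and 23.1%) and 6 and 3 at 6 h (14.1% and 14.3%). The median change of the members was then -0.27, -0.25, -0.14 and -0.10, beside 0.14, 0.26, 0.17 and 0.11 for all, so that by this scaling the lowest median was that of 0.5 h. By the rule of the submitters' design text, past 2-fold on both arrays against the mean of 0 h, 6, 8, 0 and 1 member probe sets were lower at the 4 times, beside 5.99%, 11.4%, 6.69% and 4.09% of all. The 6 came from 3 genes and the 8 from 5. Both include BUB3 201458_s_at and CCNA2 213226_at, whose arrays of those times lay below the filter and which add no support. None was higher by that rule, beside 0.117%, 0.21%, 0.304% and 0.935%. Over all 5 times together, the F test called 21 member probe sets of 15 genes, beside 39.6% of all. The count depended on single arrays. Without 0 h replicate 1 it was 3, 7, 1 and 4 lower at the 4 times. Without 0.5 h replicate 1 it was 6 and without 0.5 h replicate 2 it was 2 at 0.5 h. Without 1 h replicate 2 it was 7 at 1 h, and without 3 h replicate 2 it was 2 at 3 h. Without 0 h replicate 2, it was 5 at 3 h. The calls over all 4276 probe sets dropped in these fits as well: without 0 h replicate 1 there were 121, 609, 403 and 349 lower at the 4 times, in place of 646, 1036, 1128 and 925. With the 18S level of each array as a covariate, 0 were called lower at 0.5 h, 3 h and 6 h (4, 0 and 0 at an unadjusted p under 0.05), and 2 at 1 h, a CDK1 and a BUB3 probe set, in a fit that called 8, 139, 0 and 0 of all 4276 probe sets lower at the 4 times. With the spike-in level instead, 4 were lower at 0.5 h (2 of CDK1, and 1 each of BUB3 and CCNA2), 11 at 1 h and 0 at 3 h and 6 h (3 and 6 at an unadjusted p under 0.05), beside 220, 736, 0 and 11 of all. Both covariates were higher at every later time than at 0 h, so they share variation with the comparison itself, and their part in the changes was not tested. They are set apart from the 18 alternatives named for single genes.

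**Figure D1:**
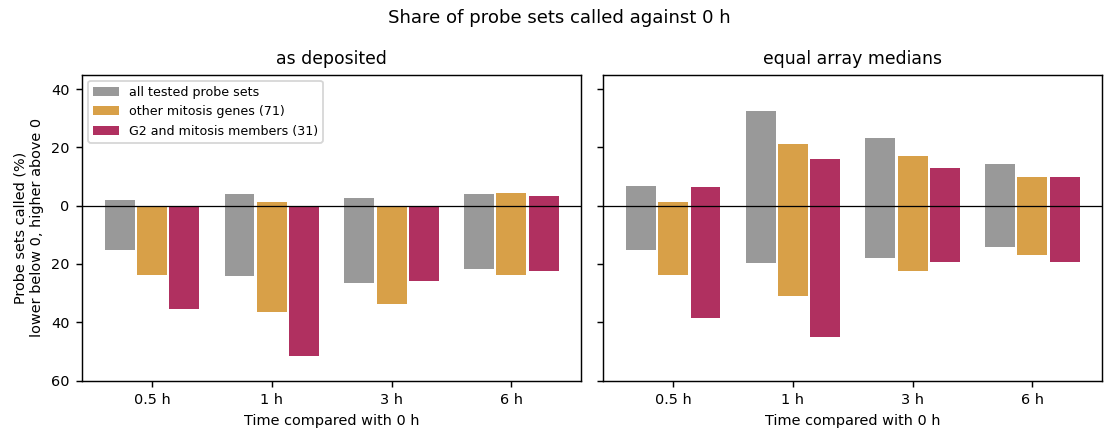
Share of probe sets called against 0 h at each time (%, lower drawn below 0 and higher above), for all 4276 tested probe sets, 71 of other genes of mitosis and 31 of the G2 and mitosis members, as deposited and with equal array medians. The members' share called lower is highest at 1 h in both panels, while the share called higher grows with equal array medians.

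CDK1 and the cyclins that activate it were called lower within the first hour. CDK1, the kinase itself, stood on its brightest probe set at 8.34 and 7.83 at 0 h, 6.86 and 6.94 after 0.5 h, 6.63 and 6.64 after 1 h, 7.38 and 6.9998 after 3 h, and 7.12 and 7.03 after 6 h. All 8 later arrays lay below both arrays of 0 h, and the 2 of 1 h were the lowest. It fell at 0.5 h (-1.19, SE 0.18, limma adjusted p = 0.00616), at 1 h (-1.45, adjusted p = 0.00121), at 3 h (-0.90, adjusted p = 0.0091) and at 6 h (-1.01, adjusted p = 0.00678). The calls of 0.5 h, 1 h and 6 h held under all 18 alternatives run for single genes, though at no time with the 18S covariate and not at 6 h with that of the spike-ins. That of 3 h was lost without 0 h replicate 1 (adjusted p = 0.0581), without 3 h replicate 2 (0.0599) and with no filter (0.0638).

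The other 2 CDK1 probe sets gave a like course. The probe set 203213_at, at 7.82 and 7.94 at 0 h, went to 5.90 and 6.02 at 1 h, a change of -1.92 (adjusted p = 0.000792). It read 7.25 and 6.68 at 3 h, and was still called lower than 0 h at 3 h (-0.91, adjusted p = 0.0108) and at 6 h (-0.75, adjusted p = 0.0245). Its rise from 1 h to 3 h was called (1.00, SE 0.19, adjusted p = 0.0355), beside 1.94% of all probe sets that were higher at 3 h than at 1 h. That call was lost without any single array of 0 h, 0.5 h or 1 h or 3 h replicate 1 (adjusted p = 0.0557 to 0.162), with no filter (0.226) and with log2 of the deposited score (0.0502). The third, 203214_x_at, changed by -1.37, -1.58, -0.96 and -0.99992 at the 4 times, and the last 2 were not called (adjusted p = 0.0584 and 0.0548).

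CCNA2, or cyclin A2, which binds CDK1 and CDK2 in S phase and G2, was at 7.85 and 7.64 at 0 h, 6.58 and 6.10 after 0.5 h, 6.63 and 6.46 after 1 h, 7.59 and 6.997 after 3 h, and 7.14 and 7.37 after 6 h. The arrays of 0.5 h and 1 h lay below all 6 others, and those of 3 h and 6 h below both of 0 h. It fell at 0.5 h (-1.41, SE 0.22, adjusted p = 0.00688) and at 1 h (-1.20, adjusted p = 0.00549). Its changes of -0.45 at 3 h and -0.49 at 6 h were not called (adjusted p = 0.176 and 0.147). The dimmer CCNA2 probe set changed by -1.28 and -1.78 at 0.5 h and 1 h, both called, and by -0.82 and -0.19 at 3 h and 6 h, which were not. Its 4 arrays of 0.5 h and 1 h lay below the filter. The call of 0.5 h on the brighter probe set was lost without 0 h replicate 1 (adjusted p = 0.065), without 0.5 h replicate 2 (0.0576) and with no filter (0.0577), and the call of 1 h with no filter (0.0524).

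The B-type cyclins, which carry CDK1 into mitosis, reached their lowest level at 1 h. CCNB1 went from 7.91 and 7.48 at 0 h to 7.34 and 7.06 after 0.5 h, 6.82 and 6.43 after 1 h, 7.02 and 7.19 after 3 h, and 6.84 and 7.19 after 6 h. It fell at 1 h (-1.07, SE 0.21, adjusted p = 0.00599) and at 6 h (-0.68, adjusted p = 0.0437), and every later array lay below both of 0 h. CCNB2 was at 7.80 and 7.44 at 0 h, 6.95 and 6.72 after 0.5 h, 6.54 and 6.49 after 1 h, 7.26 and 6.53 after 3 h, and 7.46 and 7.42 after 6 h. Its arrays of 6 h overlapped those of 0 h, and the arrays of 3 h were far apart. CCNB2 fell at 1 h (-1.11, SE 0.23, adjusted p = 0.0084) and at 3 h (-0.73, adjusted p = 0.0468), and at 6 h it differed by -0.18 (adjusted p = 0.608). Its change at 0.5 h, -0.79, just missed the threshold (adjusted p = 0.0515) and passed it with equal array medians (-0.66, 0.0232), quantile normalization applied again (0.0335), a filter at log2 7 (0.0276) and untransformed scores (0.0417), and without either 3 h array (0.0115). Without 0 h replicate 1, without 1 h replicate 2 or with no filter, both calls of 1 h were lost (adjusted p = 0.0505 to 0.0724). Those of CCNB1 at 6 h and CCNB2 at 3 h were lost under 11 and 14 of 18 alternatives, equal array medians among them (adjusted p = 0.092 and 0.0816). By single arrays, the former was lost without 0 h replicate 1 or any array of 0.5 h, 3 h or 6 h (0.05 to 0.247), and the latter without any array but 3 h replicate 1 (0.0502 to 0.25 over all 14).

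Around this core the falls were smaller. CDC25B, a phosphatase that activates CDK1, fell at 1 h (-0.45, SE 0.12, adjusted p = 0.0279) and at 3 h (-0.51, adjusted p = 0.0186). It read 6.65 and 6.58 at 0 h, 6.43 and 6.63 after 0.5 h, 6.28 and 6.05 after 1 h, 6.11 and 6.10 after 3 h, and 6.19 and 6.37 after 6 h. CKS1B, a small subunit that docks on cyclin-dependent kinases, fell at 0.5 h (-0.40, SE 0.11, adjusted p = 0.0363) and at 1 h (-0.48, adjusted p = 0.0112). It read 8.27 and 8.08 at 0 h, 7.83 and 7.73 after 0.5 h, 7.76 and 7.64 after 1 h, 7.98 and 7.91 after 3 h, and 7.96 and 7.95 after 6 h. In both genes the called arrays lay below both of 0 h. With equal array medians these 4 changes were -0.16, -0.20, -0.27 and -0.19 and none was called (adjusted p = 0.142 to 0.324). All 4 were lost without 0 h replicate 1 (0.0802 to 0.213). Those of 1 h were also lost without 1 h replicate 2 (0.0738 and 0.157), and the others without either array of their own time (0.0522 to 0.186). Both CDC25B calls were lost without 0 h replicate 2 (0.0691 and 0.0507), and CKS1B at 0.5 h without either 6 h array (0.0511).

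CKS2, the paralog of CKS1B, had no call against 0 h as deposited. It stood at 10.77 and 10.69 at 0 h, 10.82 and 10.65 after 0.5 h, 10.94 and 10.76 after 1 h, 10.46 and 10.56 after 3 h, and 10.46 and 10.18 after 6 h. The arrays of 3 h and 6 h lay below both of 0 h, and those of 0.5 h and 1 h did not. Its change was 0.12 at 1 h (adjusted p = 0.551) and -0.41 at 6 h (SE 0.13, adjusted p = 0.0527), and with equal array medians 0.41 at 1 h, which was then called higher. The change at 6 h passed the threshold with a filter at log2 7 (adjusted p = 0.0376), untransformed scores (0.0306), a floor at log2 5 (0.045) and without 6 h replicate 1 (0.0495), and with equal array medians it was -0.16 (0.431). FOXM1, a transcription factor of G2 genes, was at 6.30 and 6.46 at 0 h and 6.49 and 5.73 after 1 h, with changes of -0.08 to -0.44 and no call (adjusted p = 0.241 to 0.882). CDK1, the cyclins and their regulators made up 9 genes, of which 8 were tested. On the brightest probe set 3, 6, 3 and 2 of them were lower at the 4 times and 0 higher. The regulators CDC25B and CKS1B are among the 6 of 1 h. The background was 15.1%, 24.2%, 26.4% and 21.6% lower. At 3 h and 6 h those counts are near that background.

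**Figure D2:**
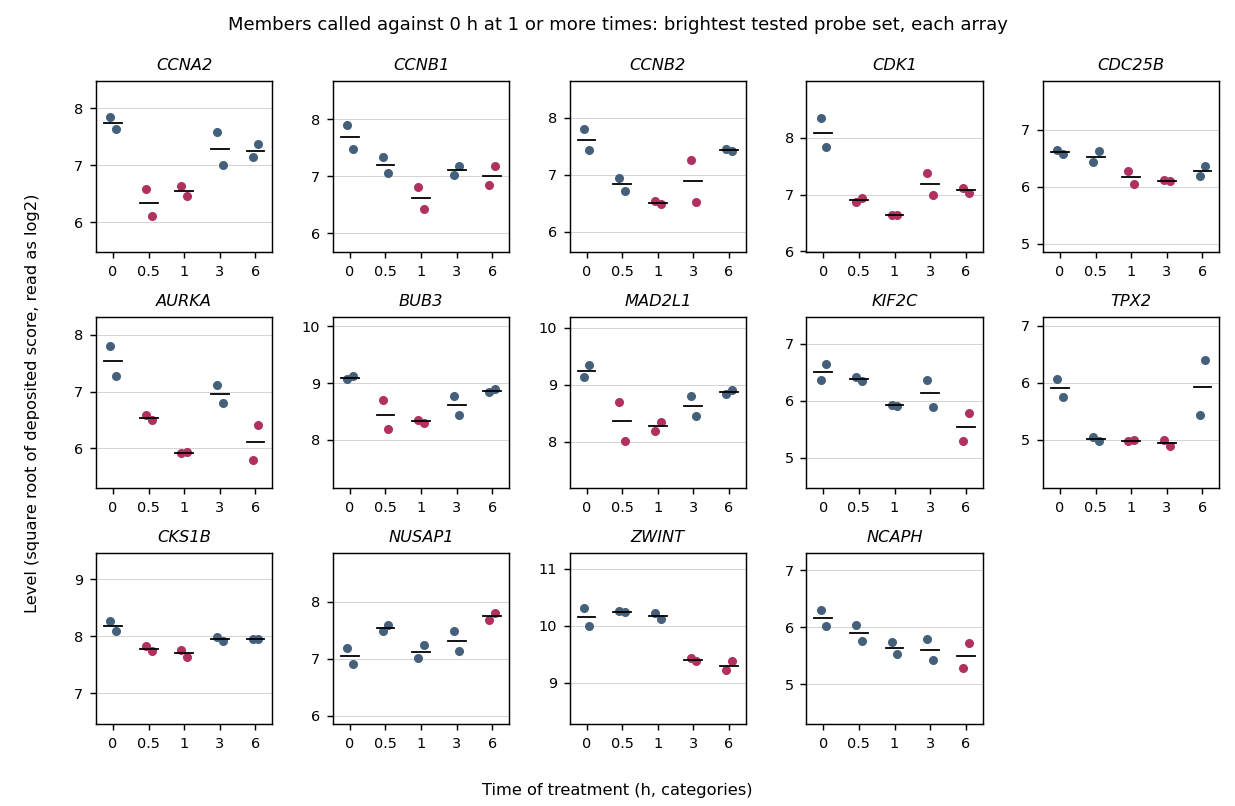
Level on each array (points; square root of the deposited score, read as log2) by time for the 14 members called at 1 or more times, on the brightest tested probe set; bars are means of 2 arrays, red points mark times called against 0 h, and every panel spans 3 units. CDK1, CCNA2, CCNB1, CCNB2, BUB3 and MAD2L1 are lowest at 0.5 h or 1 h, while ZWINT drops at 3 h and 6 h.

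Of the 2 aurora kinases, AURKA was called lower and AURKB was not, and the difference between them was not tested. AURKA, which works at centrosomes and spindle poles, was at 7.80 and 7.27 at 0 h, 6.59 and 6.49 after 0.5 h, 5.91 and 5.94 after 1 h, 7.11 and 6.80 after 3 h, and 5.80 and 6.41 after 6 h. No later array reached those of 0 h, and the course had 2 low times, 1 h and 6 h, with higher values at 3 h between them. It fell at 0.5 h (-0.998, SE 0.23, adjusted p = 0.0231), at 1 h (-1.61, adjusted p = 0.00188) and at 6 h (-1.43, adjusted p = 0.00466), but its change at 3 h was -0.59 (adjusted p = 0.0984). The steps between were not called as deposited (1.02 from 1 h to 3 h, adjusted p = 0.0533, and -0.84 from 3 h to 6 h, adjusted p = 0.0719), and with equal array medians both were (1.05, adjusted p = 0.00707, and -0.90, adjusted p = 0.00949). By that scaling 6 member probe sets in all differed between 1 h and 3 h, beside 4.16% of all probe sets lower and 5.22% higher, and 5 between 3 h and 6 h, beside 4.7% and 7.6%. The calls of 1 h and 6 h held under all 18 alternatives, though neither with the 18S covariate nor, at 6 h, with that of the spike-ins. That of 0.5 h was lost without 0 h replicate 1 (adjusted p = 0.16), either 0.5 h array (0.0762 and 0.13) or with no filter (0.153).

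AURKB, the kinase of the chromosomal passenger complex, was at 7.29 and 7.54 at 0 h, 7.66 and 7.66 after 0.5 h, 7.98 and 7.60 after 1 h, 7.85 and 7.19 after 3 h, and 7.55 and 7.21 after 6 h. Its changes lay between -0.03 and 0.38 and were not called (adjusted p = 0.282 to 0.946), although with equal array medians that of 1 h, 0.66, was called higher. BIRC5, or survivin, a partner of AURKB in that complex, likewise had no call against 0 h as deposited on any of 3 probe sets. The brightest was at 9.41 and 9.49 at 0 h, 9.66 and 9.88 after 0.5 h, 9.90 and 9.61 after 1 h, 9.70 and 9.70 after 3 h and 9.96 and 9.70 after 6 h, so that all 8 later arrays lay above both of 0 h. Those changes were 0.25 to 0.38 (adjusted p = 0.0827 to 0.228), and with equal array medians the calls turned to higher at 1 h, 3 h and 6 h. The dimmest, 202094_at, was among the calls of the F test (adjusted p = 0.0463), and its change at 0.5 h, 0.42 (adjusted p = 0.0656), was called higher with equal array medians (0.0199) and quantile normalization applied again (0.0178).

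Both tested genes of the spindle checkpoint fell early. BUB3, which brings checkpoint kinases to the kinetochore, was at 9.07 and 9.12 at 0 h, 8.70 and 8.19 after 0.5 h, 8.36 and 8.30 after 1 h, 8.77 and 8.44 after 3 h, and 8.83 and 8.89 after 6 h. Each later array lay below both of 0 h, with 6 h the closest. It fell at 0.5 h (-0.65, SE 0.17, adjusted p = 0.0385) and at 1 h (-0.76, adjusted p = 0.0132). The other tested BUB3 probe sets were lower too at both times, and all 4 changes were called. They were -0.55 and -0.82 for 201457_x_at and -1.04 and -1.56 for 201458_s_at. This last one passed the filter on 3 arrays only, both of 0 h (5.32 and 5.41) and 1 of 6 h (5.12), and all arrays of 0.5 h and 1 h lay below it (3.74 to 4.33), so it adds no support. With a floor at log2 5 both of its changes were -0.37.

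MAD2L1, the MAD2 protein that binds and blocks CDC20, was at 9.14 and 9.35 at 0 h, 8.71 and 8.02 after 0.5 h, 8.20 and 8.36 after 1 h, 8.80 and 8.45 after 3 h, and 8.84 and 8.92 after 6 h. All later arrays were below those of 0 h. It fell at 0.5 h (-0.88, SE 0.22, adjusted p = 0.029) and at 1 h (-0.97, adjusted p = 0.0127), and at 6 h it differed by -0.37 (adjusted p = 0.257). Leaving out either 0 h array or 0.5 h replicate 2 lost the calls of 0.5 h for BUB3 and MAD2L1 (adjusted p = 0.104 to 0.208), and leaving out 0 h replicate 2 or either 1 h array lost those of 1 h (0.0501 to 0.0752). That of BUB3 at 1 h was also lost without 0 h replicate 1 (0.0644), and that at 0.5 h without either 1 h or 6 h array (0.064 and 0.0582).

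The tested genes that end mitosis had no call against 0 h as deposited. CDC20, the activator of the anaphase-promoting complex, was at 7.95 and 7.93 at 0 h, 8.27 and 8.10 after 0.5 h, 8.05 and 7.89 after 1 h, 7.95 and 7.75 after 3 h, and 7.77 and 7.08 after 6 h. The arrays of 1 h overlapped those of 0 h, and the difference there was 0.03 (SE 0.21, adjusted p = 0.947). PTTG1, or securin, the inhibitor that this complex removes, stayed between 9.89 and 10.18 on all 10 arrays, with changes of -0.03 to 0.08. UBE2C, the ubiquitin-conjugating enzyme of the complex, was at 9.28 and 9.14 at 0 h, 9.36 and 9.23 after 0.5 h, 9.38 and 9.53 after 1 h, 9.65 and 9.42 after 3 h, and 9.05 and 8.87 after 6 h. Its arrays of 3 h were the highest pair and those of 6 h the lowest, and between these times it fell (-0.57, SE 0.13, adjusted p = 0.0336), the only member probe set called lower from 3 h to 6 h as deposited, beside 2.08% of all probe sets. That step was lost when any single array was left out (adjusted p = 0.0537 to 0.16), with no filter (0.132) and with log2 of the deposited score (0.0591). ESPL1, or separase, the protease held by securin, ranged from 5.46 to 5.93 with changes of -0.08 to 0.17. With equal array medians UBE2C was called higher at 1 h and 3 h and ESPL1 at 6 h.

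**Figure D3:**
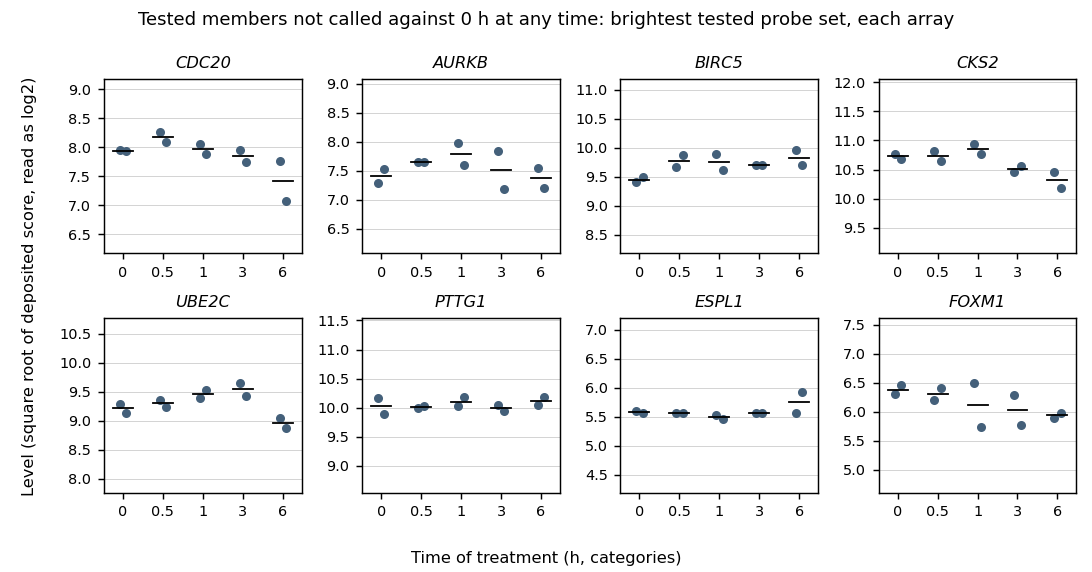
Level on each array (points; square root of the deposited score, read as log2) by time for the 8 tested members with no call against 0 h, on the brightest tested probe set; bars are means of 2 arrays and every panel spans 3 units. PTTG1 stays between 9.89 and 10.18, and UBE2C is highest at 3 h and lowest at 6 h.

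A late fall marked ZWINT, a kinetochore protein that binds the KNL1 complex. Its arrays read 10.32 and 9.99 at 0 h, 10.26 and 10.24 after 0.5 h, 10.23 and 10.12 after 1 h, 9.42 and 9.37 after 3 h, and 9.22 and 9.38 after 6 h. The arrays of 0.5 h and 1 h lay between the 2 of 0 h, and all 4 of 3 h and 6 h lay below these 6. ZWINT differed by 0.02 at 1 h (adjusted p = 0.925), fell at 3 h (-0.76, SE 0.13, adjusted p = 0.00507) and at 6 h (-0.85, adjusted p = 0.00356), and both calls held under all 18 alternatives, though under neither covariate. The step from 1 h to 3 h was itself called (-0.78, adjusted p = 0.0254), beside 1.82% of all probe sets that were lower at 3 h than at 1 h. It was lost without any array of 1 h or 3 h (adjusted p = 0.0642 to 0.124) and with no filter (0.114).

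Among the motors and spindle proteins, 3 of 9 genes were tested and each had its own course. KIF2C, a kinesin that takes microtubules apart at the centromere, was at 6.36 and 6.64 at 0 h, 6.42 and 6.35 after 0.5 h, 5.93 and 5.91 after 1 h, 6.37 and 5.90 after 3 h and 5.29 and 5.78 after 6 h. The arrays of 6 h were the lowest as a pair, below both of 0 h. KIF2C fell at 6 h (-0.96, SE 0.20, adjusted p = 0.0114). It missed the threshold when 0 h replicate 2 (adjusted p = 0.0631) or 6 h replicate 1 (0.0674) was left out and with no filter (0.0798), and the other KIF2C probe set, just inside the filter with 2 arrays at 5.42 and 5.02, changed by -0.50 (adjusted p = 0.0638). TPX2, which activates AURKA on the spindle, was at 6.08 and 5.75 at 0 h, between 4.90 and 5.05 on all 6 arrays of 0.5 h to 3 h, and at 5.44 and 6.40 at 6 h. Every array of 1 h and 3 h lay below the filter, and with a floor at log2 5 the change was -0.91 at each of these times. As deposited, TPX2 fell at 1 h (-0.93, SE 0.27, adjusted p = 0.0352) and at 3 h (-0.97, adjusted p = 0.0303), and at 6 h it differed by 0.01. Those 2 calls were lost without either 0 h array (adjusted p = 0.0563 to 0.196) or either array of their own time (0.0721 to 0.126), without either 0.5 h array at 1 h (0.0571) and without either 1 h array at 3 h (0.0509).

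NUSAP1, which bundles spindle microtubules, gave readings that part on its 2 tested probe sets. The brighter one, 219978_s_at, was at 7.18 and 6.90 at 0 h, 7.49 and 7.59 after 0.5 h, 7.01 and 7.24 after 1 h, 7.50 and 7.13 after 3 h, and 7.69 and 7.80 after 6 h. At 0.5 h and 6 h both arrays lay above both of 0 h, and at 1 h and 3 h 1 array did. It rose at 6 h (0.70, SE 0.16, adjusted p = 0.0147), the only rise of a member against 0 h as deposited. The other, 218039_at, was at 7.55 and 7.16 at 0 h, 6.47 and 6.13 after 1 h, 6.54 and 5.67 after 3 h and 6.96 and 7.10 after 6 h, and fell at 1 h (-1.05, adjusted p = 0.0214) and at 3 h (-1.25, adjusted p = 0.0116), where the brighter one differed by 0.09 and 0.27. No direction is therefore given for the gene. The rise was lost without 0 h replicate 2 (adjusted p = 0.0772), either 6 h array (0.054 and 0.0656) or with no filter (0.0797). NCAPH, the 1 tested condensin subunit, fell at 6 h (-0.67, SE 0.20, adjusted p = 0.0425). It read 6.31 and 6.03 at 0 h, 6.05 and 5.76 after 0.5 h, 5.74 and 5.53 after 1 h, 5.79 and 5.43 after 3 h, and 5.29 and 5.72 after 6 h, with 0.5 h alone overlapping 0 h. That call was lost under 11 of 17 alternatives, at adjusted p = 0.0637 with equal array medians. These included leaving out any array of 0 h, 0.5 h or 1 h, or 6 h replicate 1 (0.0503 to 0.223 over all 11).

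**Figure D4:**
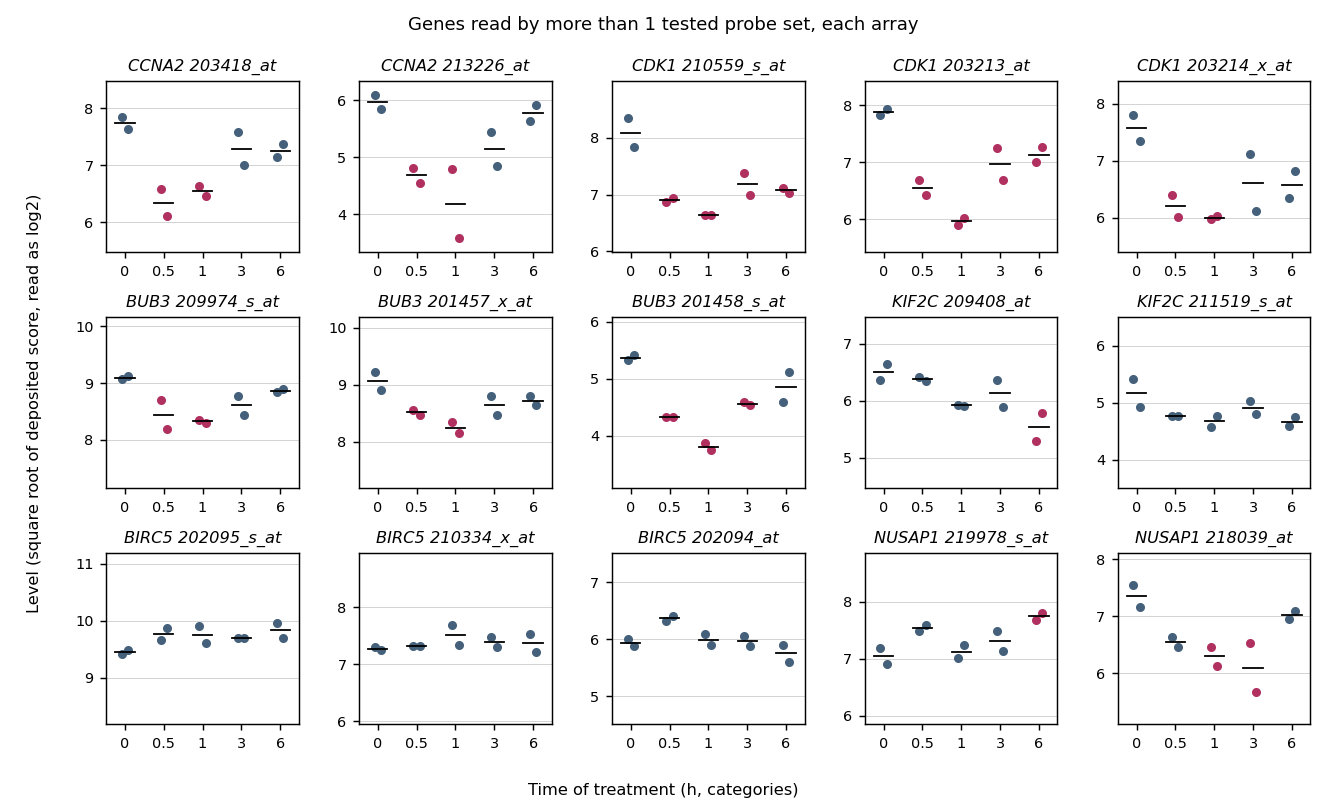
Level on each array (points; square root of the deposited score, read as log2) by time for the 6 members with more than 1 tested probe set; bars are means of 2 arrays, red points mark times called against 0 h. The probe sets of CDK1, CCNA2 and BUB3 share a low at 0.5 h or 1 h, whereas those of NUSAP1 part, with 219978_s_at up at 6 h and 218039_at down at 1 h and 3 h.

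The remaining 18 genes had no probe set that passed the filter, and they were not tested as reported. On 13 of them no probe set was above 4 on any array, where the median of all probe sets was 2.89: CDC25C, PLK1, TTK, NEK2, KIF11, KIF23, KIF4A, CENPE, CENPF, NDC80, SMC2, SMC4 and HMMR. These include PLK1, the polo-like kinase of mitotic entry, at 2.44 to 2.77, TTK, the upstream checkpoint kinase, at 2.43 to 2.50, and KIF11, the motor that separates the spindle poles, at 2.93 to 3.59. The checkpoint kinases BUB1 and BUB1B reached 4.25 and 4.28, each on a single array of 0 h with the other array at 3.24 and 2.63, and CENPA, the centromeric histone, ranged from 4.36 to 4.94, just outside the filter. A low reading of a probe set does not show that the transcript was absent.

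PRC1, the microtubule crosslinker of the spindle midzone, missed the filter with 1 array at or above 5. It was at 5.36 and 4.71 at 0 h, 3.73 and 3.41 after 0.5 h, 3.34 and 3.19 after 1 h, 3.75 and 3.23 after 3 h and 3.09 and 3.16 after 6 h, all 8 later arrays below both of 0 h. KIF20A, a kinesin of cytokinesis, went from 4.19 and 3.85 at 0 h to 3.18 and 3.20 after 1 h. In a fit with no filter PRC1 was called lower at 1 h (-1.77, adjusted p = 0.0208), 3 h (-1.55, adjusted p = 0.038) and 6 h (-1.91, adjusted p = 0.0212) and KIF20A at 1 h (-0.83, adjusted p = 0.0433), and PLK1 at 6 h (-0.17, adjusted p = 0.0443) and from 3 h to 6 h (-0.30, adjusted p = 0.0195). A further AURKA probe set, untested as reported, was called there at 0.5 h (-0.39, adjusted p = 0.0492), 1 h (-0.53, adjusted p = 0.0125) and 6 h (-0.45, adjusted p = 0.0215). Apart from 1 array of PRC1 at 0 h, all these readings were below the filter. That fit called 1.17%, 3.42%, 2.66% and 2.4% of all 22215 probe sets lower at the 4 times.

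**Figure D5:**
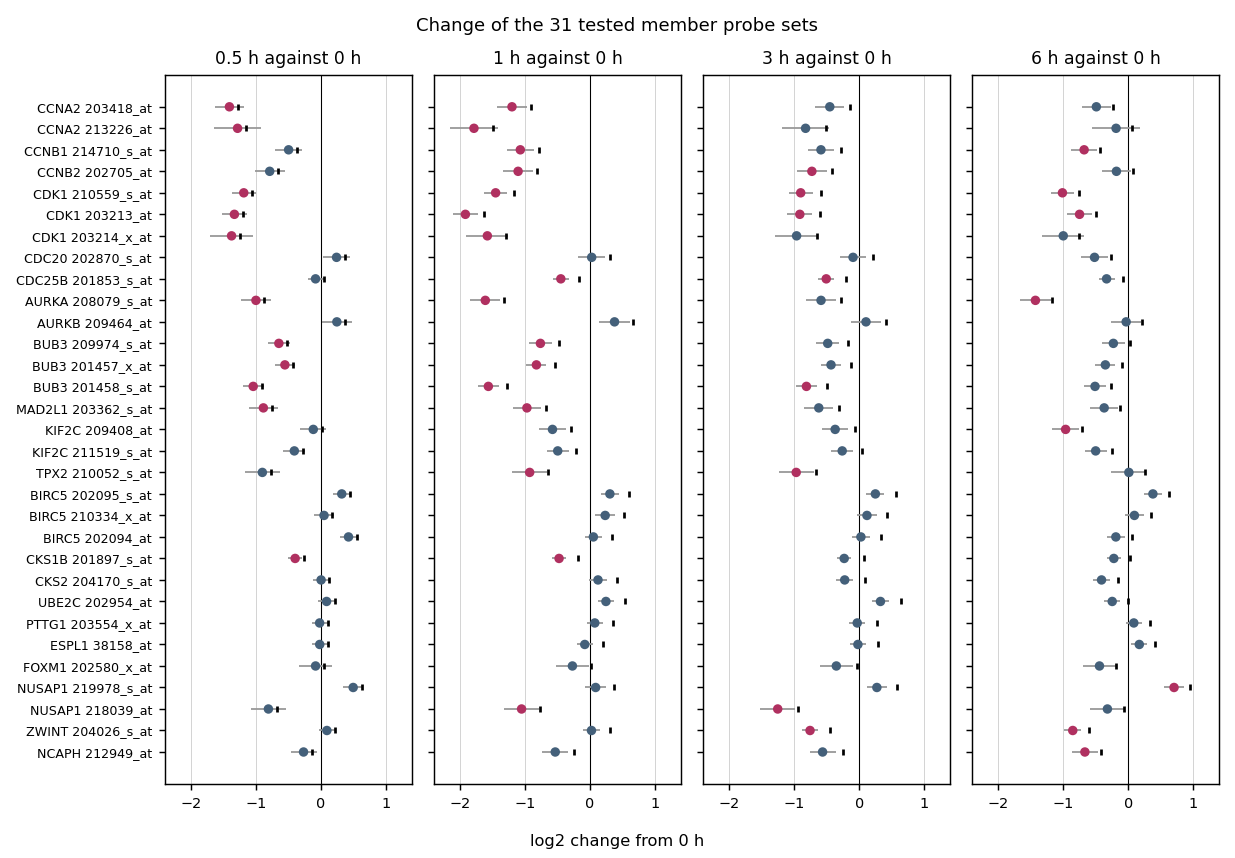
log2 change from 0 h (x axis) of the 31 tested member probe sets at each later time; points are changes as deposited with their SE (lines), red where called, and black ticks are the same changes with equal array medians. Most red points lie between -2 and -0.4, and the ticks stand to the right of the points at every time.

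Other genes of mitosis, from a list of 108 chosen by function, were read for 91 genes, and 71 probe sets of 49 genes were tested. Of these, 17 were lower and 0 higher at 0.5 h, 26 and 1 at 1 h, 24 and 0 at 3 h, and 17 and 3 at 6 h, with medians of -0.06, -0.27, -0.26 and -0.24. The shares lower were 23.9%, 36.6%, 33.8% and 23.9%, beside 15.1%, 24.2%, 26.4% and 21.6% of all, so that 6 h was near the background. With equal array medians 17, 22, 16 and 12 were lower (15.3%, 19.5%, 17.8% and 14.1% of all) and 1, 15, 12 and 7 higher (6.9%, 32.5%, 23.1% and 14.3% of all). CHEK1, the checkpoint kinase that restrains CDK1, was at 6.63 and 6.55 at 0 h and between 5.05 and 5.71 on the 8 later arrays, and fell at 1 h (-1.49, SE 0.12, adjusted p = 0.000673) and at 6 h (-1.01, adjusted p = 0.0014). WEE1, the kinase that puts the inhibitory phosphate on CDK1, went from 8.53 and 8.44 at 0 h to 8.42 and 8.24 after 0.5 h, 8.09 and 7.58 after 1 h, 7.44 and 7.46 after 3 h, and 6.90 and 7.06 after 6 h. Its arrays stepped down from time to time, and it fell at 1 h (-0.65, adjusted p = 0.0204) and at 6 h (-1.51, SE 0.17, adjusted p = 0.0012).

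ARPP19, an inhibitor of the phosphatase PP2A in mitosis, fell at 1 h (-1.96, adjusted p = 0.000717), and PPP2CA, the catalytic subunit of PP2A, at that time too (-1.61, adjusted p = 0.00134). YWHAQ, a 14-3-3 protein, fell at 1 h (-0.91, adjusted p = 0.00124), and RAN, the GTPase of nuclear transport and spindle assembly, likewise (-1.34, adjusted p = 0.00305) and at 6 h (-1.90, adjusted p = 0.0014). RAD21, a cohesin subunit, was at 6.03 and 6.07 at 0 h, 4.44 and 4.92 after 1 h and 6.62 and 6.93 after 6 h. It was called lower at 1 h (-1.38, adjusted p = 0.00138), but both arrays of that time lay below the filter, so this call adds no support. It rose at 6 h (0.72, adjusted p = 0.0218), where its other tested probe set differed by -0.04. At 1 h that other probe set changed by -1.48. NSL1, a kinetochore protein, fell at 1 h (-1.33, adjusted p = 0.00399) and differed by -0.01 at 6 h. For ARPP19 and CHEK1 the second tested probe set was not called at 1 h (-0.43 and -0.49, adjusted p = 0.42 and 0.0675), while both further YWHAQ and the further RAN probe set were lower there.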

How the data were processed

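Total RNA from MOLT-4 cells was read on 10 Affymetrix U133A arrays. Per the submitters' processing notes GCRMA made the deposited values, 1 score per probe set and array; neither version nor scale is stated. Square roots of the scores were taken and read as log2; whether the authors meant this scale is unknown. Probe sets at log2 5 or above (a score of 25) on at least 2 of 10 arrays were tested with limma (version 3.58.1, R 4.3.3; lmFit, then eBayes, time as the only factor, 5 residual degrees of freedom, Benjamini-Hochberg over all tested). The small number of arrays limits the precision.

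Probe sets were named from the platform annotation: 19071 of 22283 had 1 symbol, 1043 several and 2169 none, and 1 with a member among several symbols was not used. For each member, all arrays are given for the brightest tested probe set if it was called at any time, and for the 6 brightest members that were not; of the other mitosis genes, the 8 with the largest F are named, with any second probe set. PRC1, KIF20A, FOXM1, ESPL1 and the no-filter calls of PLK1 and AURKA were added after their values were seen. The members and lists were chosen with earlier results of these data known. Alternatives covered scaling, filter, transformation, the replicate number as a block, the submitters' fold rule and each array left out, and the 18S and spike-in covariates were chosen after seeing the data. The procedure was tested on simulated data. Promoters came from RefSeq.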

Additional observations from a re-analysis of the deposited data

Results flagged for a closer look

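A later time differed from the time before it, by a direct contrast in limma's fit, for 4 tested member probe sets. From 1 h to 3 h, CDK1 (203213_at) rose by 1.00 (SE 0.19, adjusted p = 0.0355) and BUB3 (201458_s_at) differed by 0.75 (SE 0.16, adjusted p = 0.0477), while ZWINT changed by -0.78 (SE 0.13, adjusted p = 0.0254). From 3 h to 6 h, UBE2C changed by -0.57 (SE 0.13, adjusted p = 0.0336). For BUB3 all 4 arrays compared (3.74 to 4.58) were below the filter, and with a floor at log2 5 no difference is left, so this value supports no change. The CDK1 step was lost without any single array of 0 h, 0.5 h or 1 h or 3 h replicate 1 (adjusted p = 0.0557 to 0.162), the ZWINT step without any array of 1 h or 3 h (0.0642 to 0.124), and the UBE2C step without any single array (0.0537 to 0.16). In each case both arrays of the later time lay on the same side of both arrays of the time before. With 2 arrays at each time, no single array could be tested as an outlier.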

How the results depend on the processing

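Of the single-gene changes that were called as deposited on the brightest probe sets, none changed direction over 18 alternatives, the 2 covariates apart. Among these results 375 kept and 123 lost their call. Some changes that were not called did change sign with equal array medians, such as CCNB2 at 6 h (-0.18 to 0.07) and AURKB at 6 h (-0.03 to 0.22). The counts of member probe sets moved more. As reported, 11, 16, 8 and 7 were lower at 0.5 h, 1 h, 3 h and 6 h, 0, 0, 0 and 1 higher, 3 differed from 1 h to 3 h, 1 from 3 h to 6 h, and 21 by the F test. With equal array medians 2, 5, 4 and 3 were higher at the 4 times, and 6 and 5 differed over the later steps. Quantile normalization applied again gave 2, 4, 4 and 2 higher, and 5 and 5. With no filter 4, 9 and 2 were lower at 0.5 h, 1 h and 3 h, 0 higher at 6 h, 0 differed from 1 h to 3 h, and 7 by the F test. That fit called 261, 759 and 591 of all 22215 probe sets lower at 0.5 h, 1 h and 3 h, and 143 higher at 6 h. A filter at log2 7 gave 1 higher at 0.5 h, beside 58 of all 2236 probe sets, and 3 from 3 h to 6 h. Log2 of the deposited score gave 7 lower at 0.5 h, beside 493 of all 4276, and 0 from 3 h to 6 h. The submitters' fold rule gave 6, 8, 0 and 1 lower, and 0 higher at 6 h. The 18S level as a covariate gave 0, 2, 0 and 0 lower, 0 higher at 6 h, 5 from 3 h to 6 h and 10 by the F test. The spike-in level as a covariate gave 4, 0 and 0 lower at 0.5 h, 3 h and 6 h, 0 higher at 6 h, 0 from 1 h to 3 h and 5 by the F test. At an unadjusted p under 0.05, 4, 10, 0 and 0 were lower with 18S, and 13, 17, 3 and 6 with the spike-ins, with no background at that threshold. The causes of these shifts were not tested.

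Leaving out single arrays gave 2 to 13 lower at 0.5 h, 7 to 17 at 1 h, 1 to 9 at 3 h and 4 to 7 at 6 h. It gave 0 to 1 higher at 0.5 h, 0 at 1 h and 3 h, and 0 to 1 at 6 h. Over the later steps, 0 to 4 and 0 to 3 differed, and 6 to 17 by the F test. The time with 1 array left was taken to vary like the others. Counts over all tested probe sets moved in these fits too, so these ranges are not read as a trait of the members.

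The replicate numbers were not taken to pair the arrays, since deviations of same-numbered arrays correlated at -0.23 to 0.15 between times. The correlations among 0 h, 0.5 h, 1 h and 3 h were all above 0, and those with 6 h were all below it. The replicate block gave 13, 16, 9 and 9 lower, 1 higher at 0.5 h, 2 from 3 h to 6 h and 22 by the F test. It called CCNB2 lower (adjusted p = 0.0241) and a BIRC5 probe set higher (0.0468) at 0.5 h, CKS2 lower at 6 h (0.0414), and not the BUB3 step from 1 h to 3 h (0.0537). A filter at log2 7 gave no value for CDC25B, TPX2, KIF2C and NCAPH.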
